A study of Mus musculus with 6 samples.

Results

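The genes described here encode proteins of epithelial cell junctions and 2 regulators of the epithelial state. They comprise 4 claudins (Cldn3, Cldn4, Cldn6 and Cldn7), the tight junction proteins Ocln and Tjp1, the adhesion molecules Epcam and Cdh1, the transcription factor Grhl2 and the splicing factor Esrp1. They were chosen by gene symbol, with earlier results of these data known. They are 10 of 19937 genes measured, and each had a single probe set. Expression was read in mouse embryonic stem (ES) cells, cloned from the 46C line, a male line of 129P2/OlaHsd background in which GFP was placed into the Sox1 gene. Of 6 cultures, 3 carried a control vector and 3 a vector for FLAG-tagged mouse CTCFL, and all 6 grew in medium with 10% serum and puromycin at 1 µg/ml. CTCFL (BORIS) is the germ line paralog of the insulator protein CTCF. RNA of each culture was hybridised to an Affymetrix Mouse Gene 1.0 ST array, a 1-colour array on which a value is the log2 signal of a probe set. The replicates are described as biological, but how many independently transfected lines a group holds is not given. The p-values thus set the group difference against the spread within groups of these arrays, which need not be the spread between independent lines. The number of arrays limits the precision.

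Claudins are membrane proteins whose strands seal the space between neighbouring epithelial cells, and occludin and the ZO scaffold proteins join those strands to the actin cortex. E-cadherin, the product of Cdh1, holds adjacent cells together at adherens junctions. Mouse ES cells have an epithelial character: they grow as compact colonies that express E-cadherin and EpCAM.

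Of the 10 genes, 9 were lower in FLAG-CTCFL cells and none was higher, and the remaining one, Tjp1, did not pass the test. The 4 largest falls, each more than 2-fold, were in Cldn4, Cldn6, Epcam and Esrp1, and Cldn7 fell more than 1.5-fold (1.78-fold). The median log2 fold change of the 10 genes was -0.71, against 0.0037 over all genes. Passing means a Benjamini-Hochberg adjusted p below 0.05 in limma's test, fitted and adjusted over all 19937 genes. By this rule 18.4% of all genes were lower and 12.5% higher, and of the 14207 genes whose mean signal lay above background 25.1% were lower. Falls of at least 1.5-fold were called for 2.77% of all genes, and falls of at least 2-fold for 0.597%; 5 and 4 of the 10 genes described here had one. All 3 FLAG-CTCFL arrays lay below all 3 control arrays for 10 of the 10 genes and for 23.0% of all genes. Because the genes were chosen with earlier results known, these contrasts with all genes describe the 10 genes and are no test of the set. Background was taken as 7.63, the 95th percentile of mean signal among 1190 olfactory and vomeronasal receptor genes, and all 10 genes lay above it. In a culture, fewer cells that express a gene and less RNA of it per cell cannot be told apart.

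The label of the groups was checked first. The signal of Ctcfl was 7.70, 7.85 and 7.89 on the control arrays and 11.33, 11.22 and 11.24 on the FLAG-CTCFL arrays. Array medians lay between 7.92 and 7.99, and Pearson's r over genes was 0.9969 to 0.9986 within groups and 0.9826 to 0.9849 between them. All 10 listed ES cell markers lay above background in both groups, among them Pou5f1, which encodes OCT4, at 12.65 and 12.54.

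Promoter sequences are shown for the 3 genes of largest fall whose RefSeq window was at hand (GRCm38.p6), because the windows of most members share a short motif, the E-box CAGGTG. This is the sequence read by zinc finger repressors of the ZEB and SNAI families, which are known for repressing epithelial genes. Each stretch runs 5′ to 3′ in the direction of the gene and ends before its annotated span. Capitals mark CAGGTG or its reverse complement CACCTG and, in Cldn6, also the 2 further bases of an overlapping match to AGGNGGC, the core of the CTCF consensus. The stretches lie at chr5:134946935-134947184 on the minus strand for Cldn4, at chr17:23679115-23679347 on the plus strand for Cldn6 and at chr17:87635729-87635978 on the plus strand for Epcam.
Cldn4: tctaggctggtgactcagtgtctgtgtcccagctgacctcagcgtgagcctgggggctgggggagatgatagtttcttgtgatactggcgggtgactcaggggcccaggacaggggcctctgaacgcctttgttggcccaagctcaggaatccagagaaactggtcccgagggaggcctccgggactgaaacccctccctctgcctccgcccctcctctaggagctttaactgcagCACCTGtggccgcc
Cldn6: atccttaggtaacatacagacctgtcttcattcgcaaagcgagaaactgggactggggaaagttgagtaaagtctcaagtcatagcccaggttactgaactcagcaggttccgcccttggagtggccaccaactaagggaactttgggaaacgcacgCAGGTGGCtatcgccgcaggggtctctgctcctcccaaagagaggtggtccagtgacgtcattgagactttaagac
Epcam: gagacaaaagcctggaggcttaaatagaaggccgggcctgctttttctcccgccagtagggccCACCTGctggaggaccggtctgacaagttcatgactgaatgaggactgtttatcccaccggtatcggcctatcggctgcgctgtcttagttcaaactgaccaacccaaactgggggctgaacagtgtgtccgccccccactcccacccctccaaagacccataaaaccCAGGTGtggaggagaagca
In Cldn3, Cldn7 and Ocln the matches lay after a start or inside the annotated gene, and 30 bases around 1 match of each are given. They lie at chr5:134986233-134986262 on the plus strand, chr11:69965352-69965381 on the plus strand and chr13:100552694-100552723 on the minus strand.
Cldn3: caaagccacaggCAGGTGcaggggcagtct
Cldn7: agacttccggttCAGGTGagtgtcccttca
Ocln: ccatcggagtttCAGGTGaatgggtcaccg

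Windows of 250 bases before to 50 bases after an annotated start were at hand for 7 of the 10 genes, 9 windows in all, and not for Cdh1, Grhl2 and Esrp1. CAGGTG, on either strand, was found in 7 of the 9 windows, in the genes Cldn3, Cldn4, Cldn6, Cldn7, Ocln and Epcam, whereas 20.2% of all 32851 windows of this length hold it. Counted by gene, 6 of 7 members held it in at least 1 window. Among all 15613 measured genes with a window 22.2% held it, among genes called lower 24.3%, among genes called higher 21.0%, and among genes lower by at least 1.5-fold 28.8%. Of the 118 genes with a window that were higher by at least 1.5-fold, 26 held it. The window of Tjp1 held no match. The 2 windows of Ocln overlap and share 1 match, and of the 2 windows of Cldn7 the second alone held a match. In Cldn4 the matches began at -14 and 12 and in Epcam at -187 and -19, counted from the start as base 1. AGGNGGC, on either strand, was found in 4 of the 9 windows, in Cldn6, Ocln and Tjp1, and 29.4% of all windows hold it. The pattern AACCNGNTT, taken here as the GRHL motif and searched on both strands, was in none of the 9 windows and in 2.31% of all. Other forms of the GRHL motif were not searched, and at so low a share 9 windows are too few to show a lack of it. These matches are descriptions of letters and do not show that a factor was bound.

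**Figure D1:**
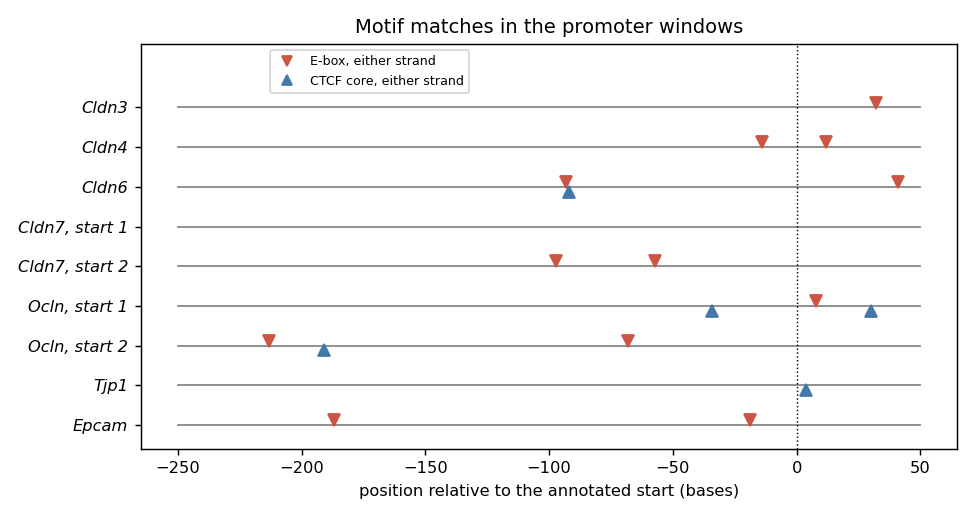
Matches to the E-box (red, down) and to the CTCF core (blue, up) along the 9 promoter windows, from 250 bases before to 50 bases after the annotated start, at the first base of each match. The E-box lies in 7 of 9 windows, and Tjp1 and the first start of Cldn7 have none.

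The claudins fell by unequal amounts. Cldn4, a claudin of simple epithelia and a receptor for a clostridial enterotoxin, read 10.94, 10.77 and 10.80 on the control arrays and 9.02, 8.92 and 8.95 on the FLAG-CTCFL arrays. The gap between the groups was many times the spread inside either. Its signal fell by 1.87 ± 0.05 on the log2 scale (SE, n = 3 per group; limma adjusted p = 4.82e-11), to 27.3% of control (95% interval 25.2% to 29.5%). Cldn6, a claudin of embryonic epithelia and pluripotent cells, read 11.07, 10.94 and 10.86 in control cells and 9.48, 9.50 and 9.40 in FLAG-CTCFL cells. Its arrays did not overlap either, and it fell by 1.497 ± 0.06 (SE; adjusted p = 7.37e-10) to 35.4% of control (32.6% to 38.5%).

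Cldn7, which is known to bind EpCAM at the lateral membrane, read 9.19, 9.24 and 9.11 in control cells and 8.21, 8.47 and 8.34 in FLAG-CTCFL cells. Among the members it varied most between FLAG-CTCFL arrays together with Epcam (SD 0.13 each), with replicate 1 lowest. It fell by 0.84 ± 0.06 (SE; adjusted p = 2.68e-07) to 56.0% of control. Cldn3, the neighbour of Cldn4 on chromosome 5 and like it an enterotoxin receptor, read 8.96, 8.90 and 8.92 in control cells and 8.45, 8.49 and 8.53 in FLAG-CTCFL cells. This fall of 0.44 ± 0.04 (SE; adjusted p = 4.85e-06) was the smallest of the 4 claudins and left 73.9% of control (69.3% to 78.9%). Within each array the log2 ratio of Cldn4 to Cldn3 signal was 1.98, 1.88 and 1.88 in control cells and 0.57, 0.43 and 0.42 in FLAG-CTCFL cells. The ratio thus fell by 1.44 with no overlap of the arrays (exact two-sided permutation p = 0.10, the smallest that 3 against 3 arrays allow). Cldn3 (mean 8.93 in control cells) lay nearer the background of 7.63 than Cldn4 (10.84). No background was subtracted here, so the fall of a dim gene may be understated beside that of a bright one.

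Ocln encodes occludin, a membrane protein with 4 passes that lies in tight junction strands. It read 8.84, 8.86 and 8.84 in control cells and 8.28, 8.30 and 8.36 in FLAG-CTCFL cells. Its control SD of 0.01 was the smallest of the members, and its fall of 0.54 ± 0.04 (SE; adjusted p = 5.40e-07) left 68.9% of control. Tjp1 encodes ZO-1, the scaffold that binds claudins and occludin from the cytoplasm. It read 10.74, 10.92 and 10.87 in control cells and 10.73, 10.66 and 10.71 in FLAG-CTCFL cells. The lowest control array and the highest FLAG-CTCFL array thus touched. The difference of -0.14 ± 0.05 (SE; 95% interval -0.25 to -0.03) did not pass after adjustment (adjusted p = 0.0608). It passed without control replicate 1, at -0.19 (adjusted p = 0.0160), and when arrays were weighted by their noise (0.00809). Over 13 alternatives its value ranged from -0.19 to -0.07 and the adjusted p from 0.00809 to 0.314.

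**Figure D2:**
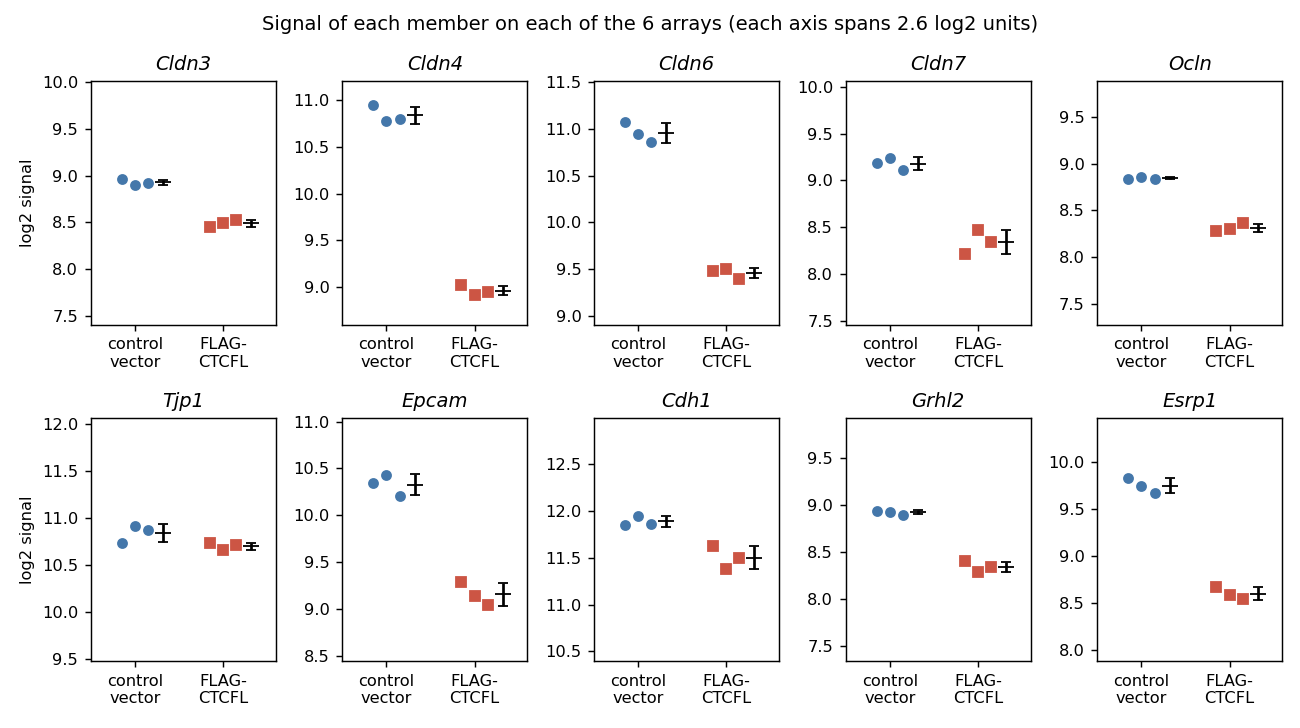
Log2 signal (vertical axis) of the 10 genes on the 3 control vector arrays (blue circles) and the 3 FLAG-CTCFL arrays (red squares), with the group mean and SD in black beside the points; every panel spans the same number of log2 units. In each panel the FLAG-CTCFL arrays lie below the control arrays, by the widest margin in Cldn4 (1.76 between the nearest arrays) and with hardly any margin in Tjp1.

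Both adhesion molecules were lower, Epcam by far more than Cdh1. Epcam encodes a surface glycoprotein of epithelial and pluripotent cells. It read 10.34, 10.43 and 10.21 in control cells and 9.29, 9.14 and 9.04 in FLAG-CTCFL cells. The groups were separated by 0.92 between the nearest arrays, and the fall of 1.17 ± 0.07 (SE; adjusted p = 3.40e-08) left 44.3% of control (40.0% to 49.1%). Cdh1, which encodes E-cadherin, read 11.85, 11.95 and 11.86 in control cells and 11.62, 11.38 and 11.50 in FLAG-CTCFL cells. Here the groups came close, with 0.23 between the nearest arrays, and the fall of 0.38 ± 0.06 (SE; adjusted p = 0.000175) left 76.6% of control (70.3% to 83.6%).

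The 2 regulators were lower as well. Grhl2, a grainyhead-like transcription factor that activates claudin, Epcam and Cdh1 genes in epithelia, read 8.94, 8.93 and 8.90 in control cells and 8.40, 8.29 and 8.34 in FLAG-CTCFL cells. It fell by 0.58 ± 0.04 (SE; adjusted p = 4.04e-07) to 66.9% of control (62.6% to 71.5%). Esrp1, an RNA-binding protein that sets epithelial splice forms, read 9.83, 9.75 and 9.67 in control cells and 8.67, 8.58 and 8.54 in FLAG-CTCFL cells. Its fall of 1.15 ± 0.05 (SE; adjusted p = 3.68e-09) to 45.0% of control was nearly that of Epcam. Splice forms themselves were not analysed here, since 1 value per probe set was used. For the 9 genes that fell, direction and call were the same under all 13 alternatives, of which some could change only the adjusted p.

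**Figure D3:**
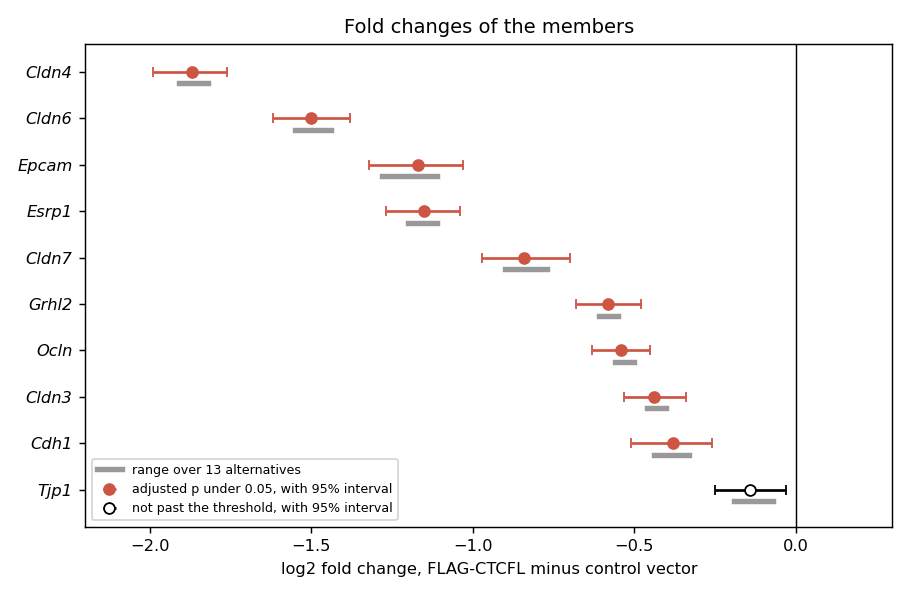
Log2 fold change of each gene with its 95% interval (points and whiskers), and the range over the 13 alternative settings (grey bars). All 10 points and grey bars lie left of 0, from -1.87 in Cldn4 to -0.14 in Tjp1, and Tjp1, the open point, did not pass after adjustment.

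The other claudin genes showed little of this. Of 20 measured, 3 were lower and 1 higher (median 0.00). The shares over all genes were 18.4% lower and 12.5% higher, and they serve for the lists that follow. Of the 20 genes, 10 lay in the background range in both groups, where a change would be hard to see. Cldn9, next to Cldn6 on chromosome 17, fell by 0.32 (adjusted p = 0.000496), and Cldn12 and Cldnd1, a claudin domain gene, each by 0.14. The last 2 calls were lost after quantile normalization of the arrays (adjusted p = 0.146 and 0.206). They were also lost without control replicate 1 (0.100 and 0.0602) or 2 (0.207 and 0.0892). Cldn1 was called higher by 0.21, but both group means (7.32 and 7.53) lay in the background range, and the call was lost without control replicate 2 (adjusted p = 0.0540) or FLAG-CTCFL replicate 3 (0.0626).

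Other genes of tight junctions and cell polarity moved both ways, 9 of 25 lower and 5 higher (median -0.08). Ildr1, an angulin of tricellular junctions, fell most, by 1.06 ± 0.05 (SE; adjusted p = 8.53e-09), and its relative Lsr fell by 0.31. F11r, which encodes the junctional adhesion molecule JAM-A, fell by 0.55, the apical polarity gene Crb3 by 0.48 and Tjp3, the ZO-3 scaffold, by 0.40. The polarity gene Llgl2 rose by 0.62 ± 0.06 (SE; adjusted p = 2.31e-06), Magi3, a junctional scaffold, by 0.49 and the angiomotin gene Amotl2 by 0.46. Marveld2, which encodes tricellulin and is the next measured gene after Ocln on chromosome 13, differed by 0.03 ± 0.04 (adjusted p = 0.734).

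In adherens junctions and desmosomes 10 of 25 other genes were lower and none higher, with a median of -0.14. With array weights, and without FLAG-CTCFL replicate 1, 2 of these genes were higher. Cdh3, the P-cadherin gene next to Cdh1 on chromosome 8, read 10.31 on average in control cells and 8.81 in FLAG-CTCFL cells. It fell by 1.498 ± 0.05 (SE; adjusted p = 5.80e-10), against 0.38 in Cdh1. The log2 ratio of Cdh1 to Cdh3 signal rose from 1.58 to 2.69 without overlap of the arrays (exact two-sided permutation p = 0.10, again the smallest possible). Perp, a desmosomal membrane protein, fell by 0.93, Afdn, the afadin gene, by 0.51, Nectin3 by 0.36, the desmosomal cadherin Dsg2 by 0.26 and Jup, plakoglobin, by 0.22. Of the other catenins at the E-cadherin tail, none of these 3 passed: Ctnnb1 differed by 0.03 ± 0.05 (adjusted p = 0.727), Ctnna1 by -0.09 ± 0.05 (0.229) and Ctnnd1 by -0.17 ± 0.07 (0.0928).

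Of 24 other epithelial regulators and surface genes 14 were lower and 3 higher (median -0.17). This list leaves out Krt8 and Krt18, keratin genes of simple epithelia counted below among trophoblast markers, which rose by 1.15 and 1.04. St14, the membrane protease matriptase, fell by 1.20 ± 0.04 (SE; adjusted p = 7.37e-10), and the ETS factor Elf3 by 1.09. Ap1m2, the epithelial sorting adaptor, fell by 1.08, Mal2 by 0.58 and Rab25 by 0.52, all genes of membrane traffic in epithelia. Among relatives of the 2 regulators, Grhl1 fell by 0.31 and Esrp2 by 0.26, while Grhl3 differed by 0.06 (adjusted p = 0.389). Klf5, expressed in ES cells and epithelia, differed by -0.04 (adjusted p = 0.606). Gja1, the connexin 43 gene, rose by 0.46, the keratin gene Krt19 by 0.40 and the motor gene Myo5b by 0.24.

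Genes known from the transition of epithelial to mesenchymal cells did not move together, with 4 of 17 lower and 2 higher (median 0.00). These counts are near the shares over all genes, 18.4% lower and 12.5% higher. The 2 that rose were Zeb1 and Zeb2. Without FLAG-CTCFL replicate 2, 4 genes of the list were higher, and with array weights 5 were higher and 7 lower. Zeb1 rose by 0.40 ± 0.05 (SE; adjusted p = 4.24e-05) from a control mean of 8.86, and Zeb2 by 0.28 ± 0.05 (adjusted p = 0.000699), from a control mean of 7.47 that lies in the background range. Snai1 differed by -0.11 (adjusted p = 0.0711), Snai3 fell by 0.23, and the mesenchymal filament gene Vim differed by -0.03 (adjusted p = 0.793). Mmp2 fell by 0.55, Sparc by 0.32 and Mmp14 by 0.31, all genes of the extracellular matrix and its turnover. Whether the levels of Zeb1, Zeb2 or Grhl2 had a part in the falls of the junction genes was not tested.

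**Figure D4:**
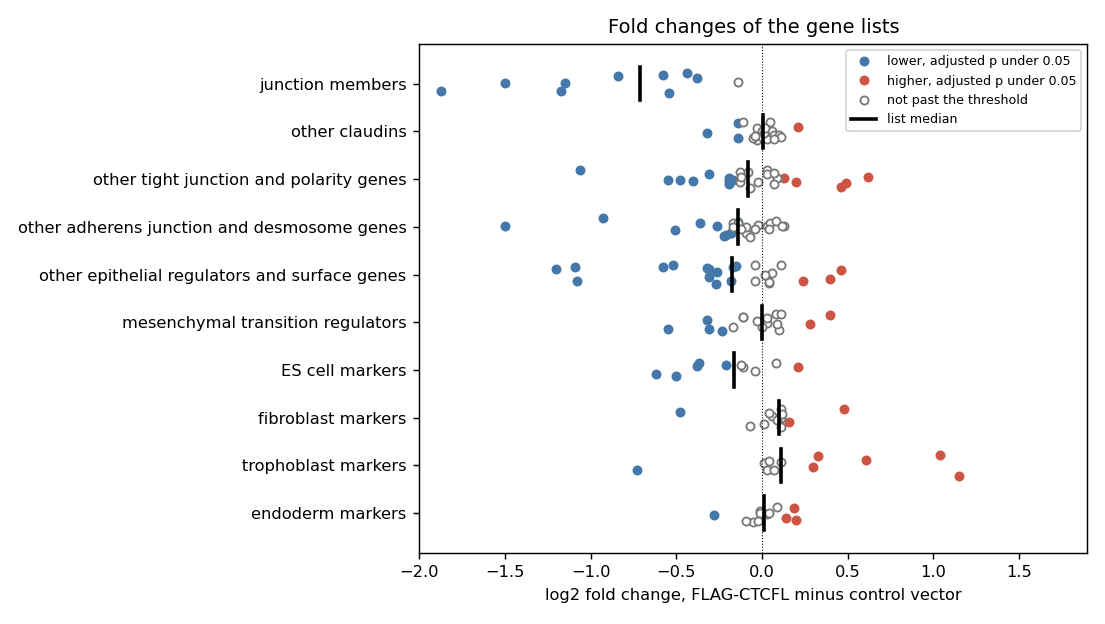
Log2 fold changes of the measured genes of each list, the 10 junction genes on top, with the list median as a black bar; blue points were lower and red points higher past the threshold, and open points did not pass. The junction genes have a median of -0.71, while the medians of the other lists lie between -0.17 and 0.11.

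Markers of other cell types were read beside these values and the shares over all genes, 18.4% lower and 12.5% higher. Of 12 fibroblast markers Tagln (0.48) and Col1a1 (0.16) were higher and Thy1 (-0.48) lower, and Lum, Dcn, Postn and Fap lay in the background range. The call of Col1a1 was lost when any of 4 arrays was left out, namely control replicates 1 and 2 and FLAG-CTCFL replicates 2 and 3 (adjusted p between 0.0551 and 0.127), and with array weights 6 of the list were higher. The log2 of that list's mean linear signal, in which the brightest genes weigh most, was 7.92 to 7.97 on control arrays and 7.96 to 8.05 on FLAG-CTCFL arrays. Of 11 trophoblast markers 5 were higher and 1 lower, with a median log2 fold change of 0.11. The log2 of the list's mean linear signal was 8.41 on every control array and 8.83 to 9.02 on FLAG-CTCFL arrays. The brightest of the list on FLAG-CTCFL arrays were Krt8 (mean 10.72, control 9.57) and Krt18 (10.19, control 9.15). They weigh most in this value, so it says little of the other markers. The keratin genes Krt8 (1.15) and Krt18 (1.04), which simple epithelia also express, rose most, Eomes rose by 0.61, Gata3 by 0.33 and Cdx2 by 0.30, the last from a control mean of 7.56 in the background range, Tfap2c fell by 0.73, and Elf5, Tpbpa and Plac1 lay in the background range. Of 12 endoderm markers Apoa1 (0.20), Dab2 (0.19) and Gata6 (0.14) were higher and Lama1 (-0.28) lower, and the same list value was 8.15 to 8.19 on control and 8.13 to 8.15 on FLAG-CTCFL arrays. When the probe sets of a gene were averaged, Dab2 was at 0.06 and its call was lost (adjusted p = 0.321). The call of Gata6 was lost without any of 5 single arrays, FLAG-CTCFL replicate 2 being the exception (adjusted p between 0.0553 and 0.194), and also with the replicate block (0.0558), after quantile normalization (0.0977) and after subtraction of array medians (0.162). The genes Sox17, Afp, Ttr and Cubn lay in the background range. Of the 10 ES cell markers 5 were lower, among them Nanog (-0.62) and Esrrb (-0.50), and 1 higher, Sall4 (0.21; 2 were higher without FLAG-CTCFL replicate 2), with list values of 12.62 to 12.63 on control and 12.30 to 12.42 on FLAG-CTCFL arrays. The part of these differences in the falls of the junction genes was not tested.

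The 10 genes lie on 8 chromosomes (4, 5, 7, 8, 11, 13, 15 and 17), on which the median log2 fold change of all measured genes was 0.00 to 0.02 and 14.1% to 19.6% of genes were lower. Genes were placed in GRCm38.p6 order among measured genes only, so a gene called beside a member need not be its nearest. In this order 18 other genes directly precede or follow a member. Of these 3 were lower, 4 higher and 11 not past the threshold, with a median of 0.05. Over all genes 18.4% were lower and 12.5% higher. Cldn3 and Cldn4, which lie next to each other and both fell, are members and not among the 18. The 3 lower were Cdh3 and Cldn9, each a paralog of the member beside it, and Slc2a4 beside Cldn7 (-0.24). The 4 higher were Mettl27 beside Cldn4 (0.27), Naip6 beside Ocln (0.59, from a control mean of 7.18 in the background range), Tarsl2 beside Tjp1 (0.24) and Calm2 beside Epcam (0.17, lost when control replicate 1, control replicate 2 or FLAG-CTCFL replicate 1 was left out, at adjusted p between 0.0623 and 0.0715). Zfp706, which precedes Grhl2, differed by 0.06, and Tango6, which follows Cdh1, by -0.06 (adjusted p = 0.594 and 0.408).

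**Figure D5:**
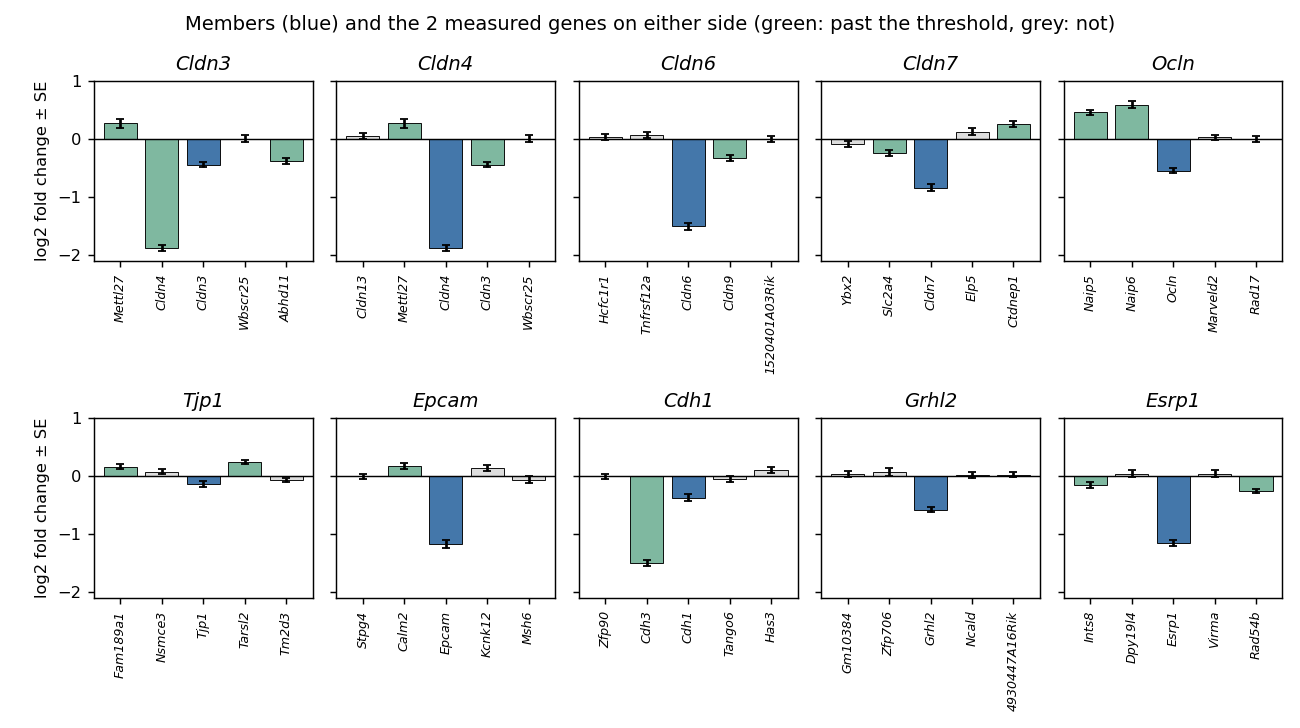
Log2 fold change with SE (bars and whiskers) of each of the 10 genes (blue) and of the 2 measured genes on either side of it in chromosome order; green neighbours passed the threshold and grey ones did not. Beside the blue bars, falls of over 1 are seen in Cldn4, itself a member, and in Cdh3.

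Over the 6 arrays, the genes with the profile most like that of Cldn4 by Pearson's r, among 9968 genes above the median signal, were Brcc3 (0.9996), Npepl1 (0.9995) and Zc4h2 (0.9995). For Cldn6 they were Bckdhb (0.9999), Nxt2 (0.9993) and Cyba (0.9990). All such values share the difference between the groups of 3, which sets most of each r, so they describe these arrays only.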

How the data were processed

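RNA (200 ng per culture) of 3 control vector and 3 FLAG-CTCFL cultures was read on 6 arrays. The deposited table held 1 log2 signal per probe set and array (34760 probe sets, 5.73 to 14.56). That the values are log2 was read from this range. How the authors corrected background, summarised probes and normalized is not given in the sources used here. The platform annotation gave 1 symbol to 21640 probe sets, several to 1321 and none to 11799. Symbols were updated by Entrez ID (21553 matched, 87 kept the annotated name), and the brightest of several probe sets was kept, which left 19937 genes.

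The test was limma's moderated linear model (version 3.58.1, R 4.3.3; two-sided) on these deposited values, with no term beside group and Benjamini-Hochberg adjustment over all genes. A positive log2 fold change means higher in FLAG-CTCFL cells, and SE are moderated. Of other lists, up to 6 genes past the threshold with the largest change were named. Other genes named beyond that rule were chosen after their values were seen. They are Tjp3, Lsr, Grhl1, Esrp2, Krt19, Myo5b, the neighbouring genes and the genes named that did not pass. The members and the lists were chosen with earlier results of these data known. The 13 alternatives were quantile normalization, array medians subtracted, the dimmest genes dropped (below the 25th percentile), probe sets of a gene averaged, robust estimation with a variance trend, array weights, a replicate block, and each of 6 arrays left out. The fit was also run on simulated data in which 200 genes were changed, all of them raised. In the real arrays 6161 genes were called, in both directions, so the simulation does not test the fit at that share of changes. Promoter sequences came from RefSeq (GRCm38.p6), for 7 of the 10 genes; their orientation was checked by the place of the TATA motif. A planned comparison of claudin proteins was not run. Python 3.11.15 with matplotlib 3.10.9 drew the figures.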

Additional observations from a re-analysis of the deposited data

How the results depend on the processing

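Across the 13 alternatives the 9 junction genes that fell stayed lower and past the threshold. With array weights and without control replicate 1, where Tjp1 passed, 10 of the 10 were called. Averaging of probe sets, the replicate block, the filter on dim genes and the variance trend leave a member's fold change as it was. These settings bear only on its adjusted p. Over all genes 6161 changed, and between 4950 and 6429 with 1 array left out (1905 to 2818 higher, 3045 to 3880 lower). With array weights, of which FLAG-CTCFL replicate 3 took 5.77 and replicate 2 took 0.321, 4195 genes were higher against 2496. The cause was not tested. Quantile normalization gave 3451 higher and 3654 lower, and subtraction of array medians 1785 and 3811.

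Same-numbered arrays of the groups did not deviate together (r = 0.13, -0.20 and -0.02), so the numbers were not taken to pair them. With the replicate number as a block 5979 genes changed, and 9 junction genes were lower, the same count as without the block.

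Among the lists, after quantile normalization 1 other claudin was lower against 3, and 2 ES cell markers were higher and 2 endoderm markers lower, against 1 each. Subtraction of array medians left 1 fibroblast marker higher against 2, and the filter on dim genes left 0 other claudins higher against 1. With array weights 3 other claudins were higher and 5 lower, 2 adherens junction and desmosome genes higher, 5 transition genes higher and 7 lower, 6 fibroblast and 2 ES cell markers higher and 2 endoderm markers lower. With 1 array left out the counts were 0 to 2 for other claudins higher, 1 to 3 for those lower, up to 4 for transition genes higher, up to 2 for adherens junction and desmosome genes and for ES cell markers higher, and 1 to 2 for fibroblast markers higher. In 5 cases a gene near 0 changed sign without passing. Marveld2 was at 0.00 after quantile normalization. With 1 array left out Ctnnb1 ranged from -0.01 to 0.08, Zfp706 from -0.01 to 0.14, Klf5 from -0.08 to 0.00 and Vim from -0.11 to 0.02. Dim signal limits the 10 other claudins in the background range.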
